A study of Bos taurus with 10 samples.

Results

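Integrins are cell surface receptors made of an alpha and a beta chain, and many of them hold cells to the extracellular matrix. The basement membrane is the thin sheet of matrix that wraps each adipocyte, muscle fibre, Schwann cell and capillary. Its laminins are trimers of an alpha, a beta and a gamma chain, and nidogens link the laminin network to that of collagen IV. The heparan sulfate proteoglycans perlecan and agrin are also part of the basement membrane. The genes described here are the 38 of 12674 listed genes whose symbols begin with ITGA or ITGB, with LAMA, LAMB or LAMC and a digit, or with NID and a digit, or are HSPG2 (perlecan) or AGRN (agrin). They comprise 9 laminin chains, 2 nidogens, 2 proteoglycans, 21 integrin chains, and 4 genes that match by name but encode no chain. The laminin chain genes LAMA1, LAMA2 and LAMB4 and the integrin chain genes ITGA4, ITGA7, ITGAD, ITGAX and ITGB8 were not analysed here, so each share of a class given below is a share of the chains with values and not of the whole class.

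Intramuscular fat, the marbling fat between muscle fibres, was compared with subcutaneous fat, which lies beneath the skin. Whole adipose tissue of both depots came from 5 adult Angus cross heifers, with 5 libraries per depot, and no treatment or genetic change was involved. Libraries with the same replicate number were taken as coming from the same animal, and the labels do not say which muscle or site was sampled. The series asks what may lie behind the later and slower growth of marbling fat. All levels are in CPM, counts scaled to a common library total by edgeR, and levels of different genes are compared only as CPM per kilobase of the gene length in the deposited table.

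Total counts over the listed genes were 9392739 to 14836808 in intramuscular and 13776094 to 17685678 in subcutaneous libraries. The depots also differed in transcripts of other cells, which bulk RNA cannot assign. A list of 69 striated muscle genes had values for 13, and all 13 were higher in intramuscular fat. Their summed level was 3949, 1072, 1998, 593 and 748 CPM in intramuscular replicates 1 to 5, against 4.76 to 11.4 CPM in subcutaneous fat, where 4 of the 13 had no count. Intramuscular replicates 2, 4 and 5 still lay far above subcutaneous fat, so fits without replicates 1 and 3 cannot separate depot from muscle transcripts. Adipocyte markers (12 genes) summed to 6300.5 to 23470 CPM in intramuscular and 22892 to 34098 CPM in subcutaneous fat, and intramuscular replicate 1 was the lowest. Endothelial markers (16 genes) summed to 2444 to 3121 against 3085 to 5541 CPM, and mural cell markers (7 of 11 genes listed) to 2099 to 2676 against 1702 to 2515 CPM. ACTA2, MYH11, TAGLN and CNN1 of the mural list were not analysed here. In intramuscular fat 5 endothelial and 2 adipocyte markers were lower and 0 of either list higher. The shares of all genes tested were 5.49% lower and 6.75% higher. Intramuscular fat had higher levels of 3 of the mural markers and lower levels of 0 by the test used below, with RGS5 at a mean of 426 against 52.1 CPM, CSPG4 at 174 against 75.6 CPM and ABCC9 at 15.5 against 5.67 CPM, while MCAM, the largest part of the sum, averaged 1105 against 1323 CPM and was not called. In bulk tissue, fewer cells of a type and less RNA per cell cannot be told apart.

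All 38 genes passed the filter on low counts. The edgeR quasi-likelihood test used here did not pair the libraries, and its p-values were adjusted over all genes tested with a threshold of 0.05. By it, 6 of the 38 were higher in intramuscular fat and 0 were lower. At an unadjusted p under 0.05, 9 were higher and 3 lower, where the shares of all genes tested were 14.5% and 16.2%. At the adjusted threshold, 6.75% of all 12521 genes tested were called higher and 5.49% lower. The 6 higher genes are 15.8% of the 38, and all 6 are among the 21 integrin chains, ITGA1, ITGA5, ITGA8, ITGB1, ITGB3 and ITGB6. None of the 13 laminin, nidogen and proteoglycan genes passed the test. The median log2 fold change was 0.42 for the integrin chains, -0.22 for the laminin, nidogen and proteoglycan genes and -0.04 for all genes tested. The values of the depots did not overlap for 6 of the 38 genes, all higher in intramuscular fat, where the share was 7.85% of all genes tested (5.04% for no overlap and lower). The authors' deposited table, from DESeq2, gives 8 of the 38 as higher, where it calls 10.8% of all genes, and 1 as lower, where it calls 9.24%, and its 9 include all 6 of those above. The other 3 in that table are LAMC3, ITGA3 and ITGB1BP2.

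**Figure D1:**
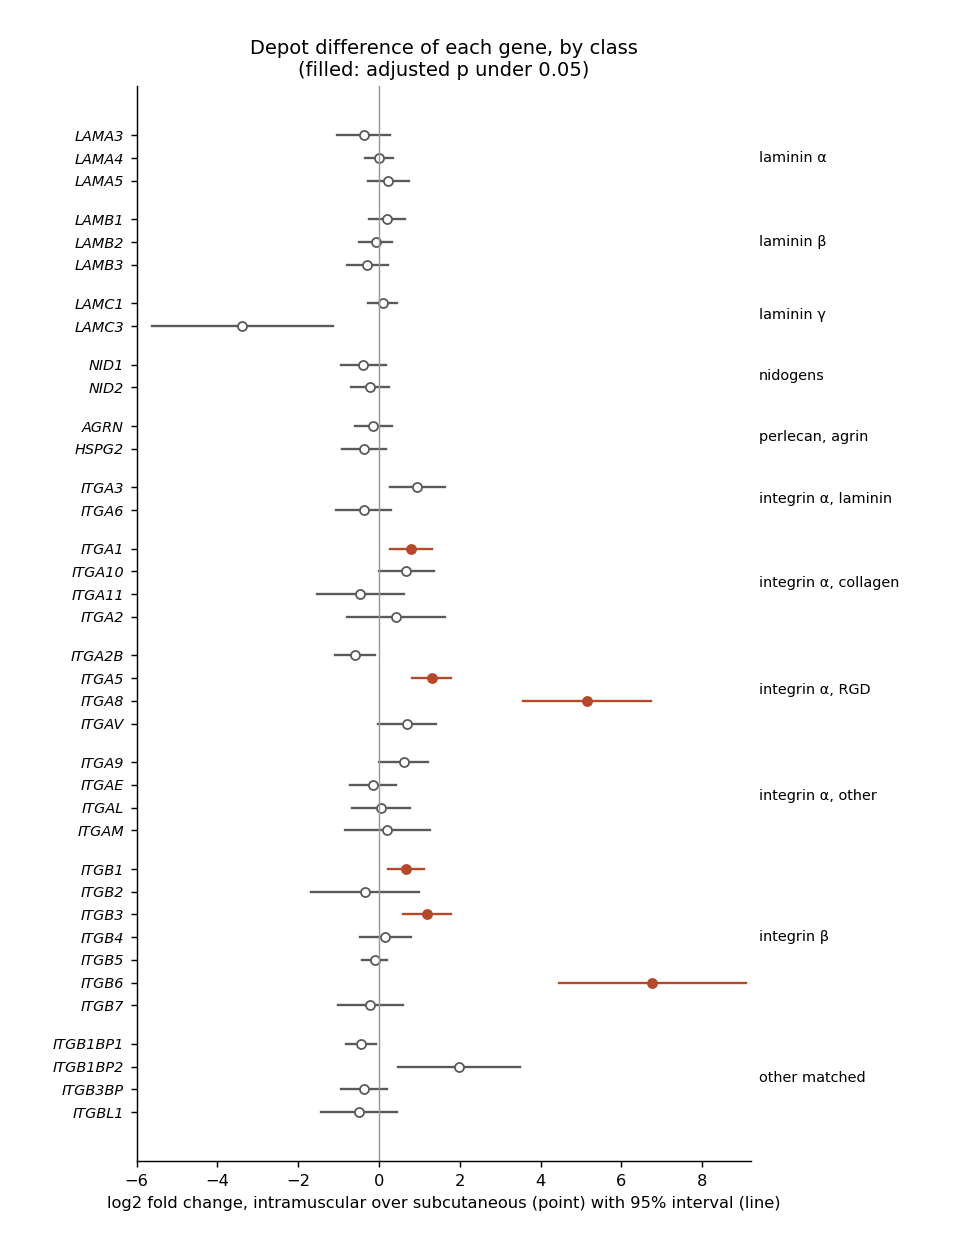
Log2 fold change of intramuscular over subcutaneous fat for 37 of the 38 genes (points) with its 95% interval from the edgeR fit (lines), by class of chain, with filled points for an adjusted p under 0.05. The filled points are 6 integrin chains, with ITGB6 at 6.77 and ITGA8 at 5.15, while the intervals of the abundant laminin chains LAMA4, LAMB2 and LAMC1 lie around 0.

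Laminin alpha chains decide which receptors a laminin binds. LAMA4, the alpha chain of laminins around adipocytes, muscle and small vessels, was the most abundant of the 3 listed and measured 338, 404, 401, 415 and 453 CPM in intramuscular replicates 1 to 5, against 469, 381, 469, 354 and 347 CPM in subcutaneous replicates 1 to 5. The depots overlapped throughout, and the log2 fold change was -0.01 (95% interval -0.35 to 0.34, adjusted p = 0.982). LAMA5, prominent in endothelial basement membranes, averaged 209.7 ± 56.8 CPM in intramuscular and 179 ± 52.8 CPM in subcutaneous fat (SD, n = 5 each), and its highest value was 306 CPM in intramuscular replicate 1. LAMA3, an alpha chain of epithelial laminins, averaged 35.5 ± 5.31 against 45.9 ± 26.1 CPM, with subcutaneous replicate 1 apart at 89.7 CPM. Per kilobase, LAMA4 made up 70.2 ± 7.23% of the listed alpha chains in intramuscular and 72.5 ± 5.50% in subcutaneous fat, LAMA5 25.8 ± 6.70% and 22.5 ± 5.09%, and LAMA3 4.00 ± 0.538% and 5.06 ± 2.00%. These 3 levels kept the same order in all 10 libraries.

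LAMB2, the beta chain of mature muscle, nerve and vessel laminins, was the most abundant of all 13 laminin, nidogen and proteoglycan genes per kilobase, at 215 ± 22.9 CPM per kilobase in intramuscular and 228 ± 49.3 in subcutaneous fat. Its levels were 1417, 1186, 1152, 1077 and 1175 CPM in intramuscular replicates 1 to 5, against 1609.9, 1412, 1244, 864 and 1225 CPM in subcutaneous replicates 1 to 5, and the depots overlapped. LAMB1, the other widely expressed beta chain, averaged 230.0 ± 39.7 against 201 ± 55.0 CPM. LAMB3, a beta chain of epithelial laminins, averaged 15.0 ± 2.91 against 18.3 ± 5.44 CPM. LAMB2 held 83.8 ± 3.49% of the listed beta chains per kilobase in intramuscular and 86.0 ± 0.787% in subcutaneous fat.

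LAMC1, the gamma chain of most laminins, measured 498, 552, 579, 664 and 697 CPM in intramuscular replicates 1 to 5, against 684, 550.0, 506, 567 and 504 CPM in subcutaneous replicates 1 to 5 (log2 fold change 0.09, 95% interval -0.27 to 0.44, adjusted p = 0.751). LAMC3, a rare gamma chain, had the smallest p of the genes with lower values in intramuscular fat. It measured 0, 0.147, 0.731, 0.949 and 0 CPM in intramuscular replicates 1 to 5, from 0, 2, 10, 14 and 0 counts, against 10.6, 2.27, 0.372, 1.41 and 5.24 CPM in subcutaneous replicates 1 to 5. Its log2 fold change was -3.39 ± 1.04 (± SE), and it was lower in intramuscular fat in 4 of 5 pairs, with overlap between depots. The edgeR adjusted p was 0.05003, just above the threshold. It was 0.158 with the replicate number as a block. Of the 10 fits that left out a library, 2 passed the threshold, at 0.0490 without intramuscular replicate 4 and 0.0396 without subcutaneous replicate 3, and 8 did not, at 0.0520 to 0.104. Without subcutaneous replicate 1 the subcutaneous mean was 2.32 in place of 3.99 CPM, and the log2 fold change was -2.61 (edgeR adjusted p = 0.102). The authors' deposited table gives an adjusted p of 0.00614.

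The nidogens and proteoglycans had negative fold changes that did not pass the test. NID1 measured 236, 498, 490.0, 429.8 and 522 CPM in intramuscular replicates 1 to 5, against 792, 655, 473, 554 and 364 CPM in subcutaneous replicates 1 to 5 (edgeR adjusted p = 0.325). Intramuscular replicate 1 lay below the other 9 libraries, beside the highest striated muscle sum of 3949 CPM and the lowest adipocyte sum of 6300.5 CPM, whose part in this was not tested. NID2 averaged 278 ± 72.3 against 323 ± 77.9 CPM. Perlecan (HSPG2), which holds growth factors on its heparan sulfate chains, measured 1709.8, 1614, 1767, 1977 and 2250.4 CPM in intramuscular replicates 1 to 5, against 3525, 3094, 1352, 2151 and 1899.9 CPM in subcutaneous replicates 1 to 5, so that subcutaneous fat held both the highest and the lowest values. Agrin (AGRN), known for gathering acetylcholine receptors at the neuromuscular junction, averaged 96.6 ± 23.7 against 107 ± 29.2 CPM, and its highest intramuscular value was the 138 CPM of replicate 1. The log2 fold changes of NID1, NID2, HSPG2 and AGRN were -0.38, -0.22, -0.37 and -0.14, and each 95% interval included 0.

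**Figure D2:**
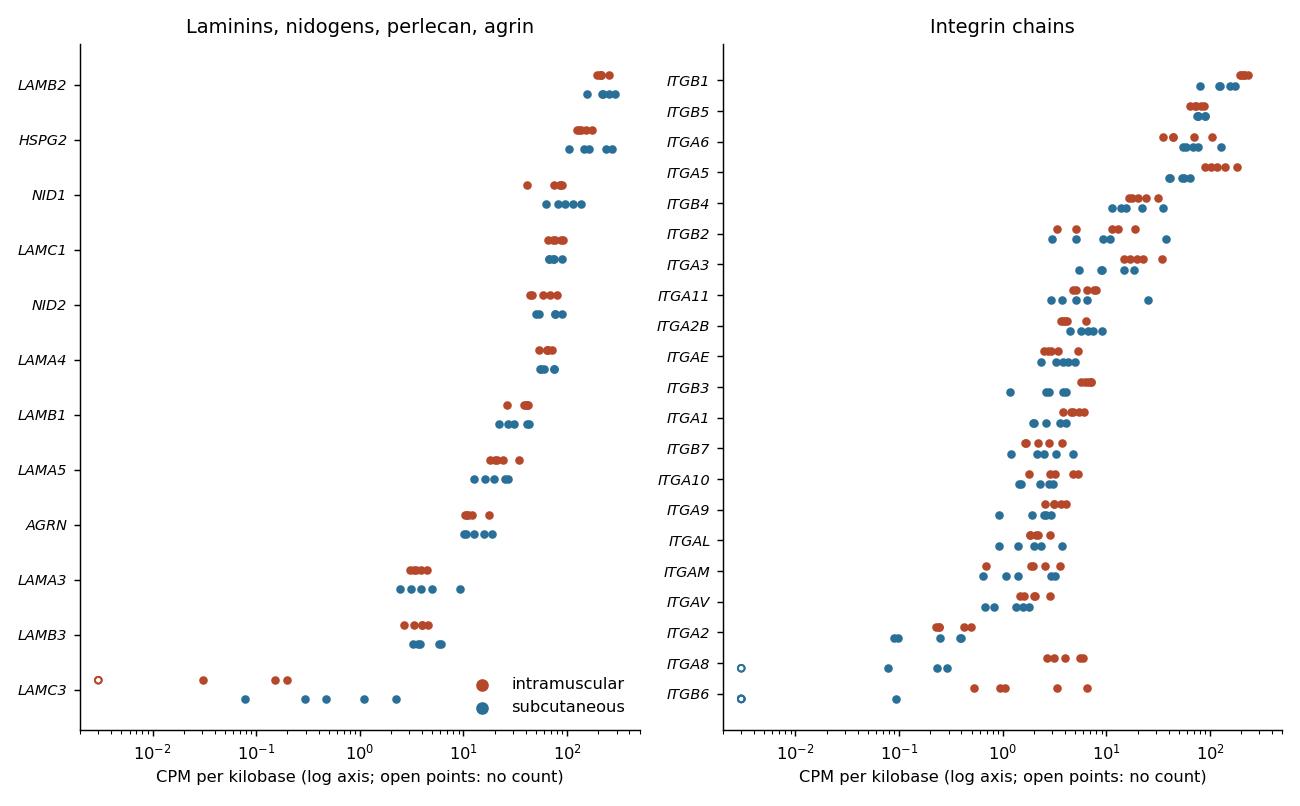
Level of the laminin, nidogen and proteoglycan genes described (left) and each integrin chain (right) in every library, in CPM per kilobase on a log axis, with intramuscular points above subcutaneous ones for each gene and open points for libraries with no count. LAMB2 and HSPG2 lead the left panel and ITGB1 the right one, and ITGA8 and ITGB6 are the integrin chains whose depots stand farthest apart.

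Among the integrin alpha chains that bind the RGD motif of fibronectin, vitronectin and related proteins, ITGA5 and ITGA8 rose in intramuscular fat. ITGA5, the alpha chain of the main fibronectin receptor (ENSBTAG00000013745, chromosome 5, 25662272 to 25683364), measured 457, 631, 401, 523 and 823 CPM in intramuscular replicates 1 to 5, against 287, 239.9, 179.9, 254 and 183 CPM in subcutaneous replicates 1 to 5. Every intramuscular value lay above every subcutaneous one. The log2 fold change was 1.31 ± 0.22 (± SE), a 2.48-fold difference, with an edgeR adjusted p of 0.00315. Intramuscular replicates 1 and 3, which had the highest striated muscle sums, had the 2 lowest ITGA5 values of that depot. Without both, the log2 fold change was 1.53 (edgeR adjusted p = 0.00382). The part of muscle transcripts in the ITGA5 difference was not tested.

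ITGA8, which pairs with the beta-1 chain and is known from mesenchymal and smooth muscle cells (ENSBTAG00000007602, chromosome 13, 30056080 to 30242437), measured 17.5, 9.91, 18.9, 8.40 and 12.6 CPM in intramuscular replicates 1 to 5. Its subcutaneous levels were 0.904, 0.733, 0.248, 0 and 0 CPM in replicates 1 to 5, from 14, 10, 4, 0 and 0 counts, and the depots did not overlap. ITGA8 had a log2 fold change of 5.15 ± 0.73 (± SE, edgeR adjusted p = 0.000968), and 5.79 without subcutaneous replicate 1. Intramuscular replicates 1 and 3 were the highest for ITGA8 and for the striated muscle sum. Without both of them the log2 fold change was 4.77 (adjusted p = 0.0136). The mural genes RGS5, CSPG4 and ABCC9 were higher in intramuscular fat as well, and their part in the ITGA8 difference was not tested. The other RGD-binding chains did not pass the test. ITGAV averaged 7.31 ± 1.93 against 4.54 ± 1.77 CPM, and ITGA2B, the alpha chain of the platelet fibrinogen receptor, 15.3 ± 3.96 against 23.2 ± 6.11 CPM, lower in intramuscular fat in 5 of 5 pairs (edgeR adjusted p = 0.104).

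Of the beta chains, ITGB1, ITGB3 and ITGB6 rose in intramuscular fat. ITGB1, the shared partner of most matrix-binding alpha chains (ENSBTAG00000015910, chromosome 13, 19971622 to 20014497), measured 763, 782, 908, 829.7 and 829.6 CPM in intramuscular replicates 1 to 5, against 616, 684, 492, 472 and 316 CPM in subcutaneous replicates 1 to 5. The depots did not overlap, and the intramuscular values spread less (SD 56.3 against 142 CPM). The log2 fold change was 0.67 ± 0.20 (± SE), a 1.59-fold difference, with an edgeR adjusted p of 0.0485. That call is marginal, since it was lost in 8 of the 10 fits that left out a library, those without any of the 5 intramuscular libraries or without subcutaneous replicate 3, 4 or 5, with adjusted p of 0.0641 to 0.109 and log2 fold changes of 0.54 to 0.70. ITGB1 was the most abundant integrin chain per kilobase in both depots, at 210.4 ± 14.4 in intramuscular and 132 ± 36.3 CPM per kilobase in subcutaneous fat.

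ITGB3, which joins ITGAV in a vitronectin receptor and ITGA2B on platelets (ENSBTAG00000009987, chromosome 19, 46329945 to 46392416), measured 42.0, 39.4, 35.8, 44.3 and 45.0 CPM in intramuscular replicates 1 to 5, against 24.1, 17.4, 7.33, 25.6 and 16.3 CPM in subcutaneous replicates 1 to 5. The intramuscular libraries were close together and all above the subcutaneous ones. ITGB3 had a log2 fold change of 1.18 ± 0.27 (± SE), with an edgeR adjusted p of 0.0160, which became 1.24 with an adjusted p of 0.0733 without intramuscular replicates 1 and 3.

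ITGB6, known as the partner of ITGAV in an epithelial receptor that activates latent TGF-beta (ENSBTAG00000009080, chromosome 2, 36097616 to 36247251), measured 24.4, 3.96, 12.4, 1.97 and 3.51 CPM in intramuscular replicates 1 to 5. In subcutaneous fat only replicate 4 had a count, of 6, or 0.352 CPM, and the other 4 libraries had none. ITGB6 had a log2 fold change of 6.77 ± 1.07 (± SE, edgeR adjusted p = 0.00185). It rests on few subcutaneous counts. The ratio of the depot means was 131 over all libraries. Without subcutaneous replicate 4, the intramuscular mean of 9.26 CPM was set against a floor of 3 counts over the remaining 4 subcutaneous libraries (0.05005 CPM). It was at least 185-fold higher than that floor, or at least 109-fold higher when intramuscular replicate 1 was also left out. Both bounds drop the only subcutaneous library with a count, so they are no lower limit on the difference over all libraries. The intramuscular values had the same order as the striated muscle sums of 3949, 1072, 1998, 593 and 748 CPM. Without intramuscular replicate 1 the intramuscular mean was 5.47 CPM and the log2 fold change 6.03, and without replicates 1 and 3 the log2 fold change was 5.24 (adjusted p = 0.0265). Of 5 epithelial markers 3 had values, and their sum was 6.96 to 15.7 CPM in intramuscular and 9.94 to 40.6 CPM in subcutaneous fat. Among them TP63 was higher in intramuscular fat, at a mean of 3.71 against 0.399 CPM, KRT10 was lower, at 4.00 against 8.90 CPM, and EPCAM, at 3.56 against 8.74 CPM, was not called. The part of muscle transcripts in the ITGB6 difference was not tested.

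**Figure D3:**
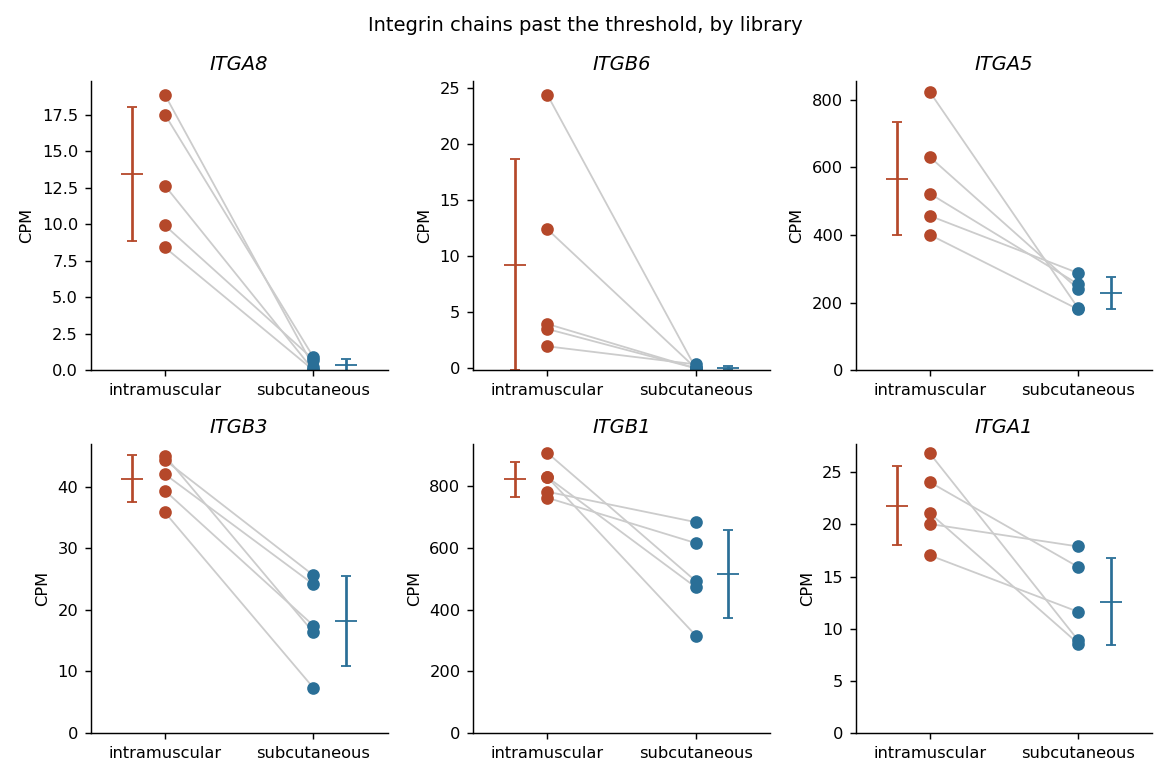
CPM of the 6 integrin chains past the threshold in each library, with grey lines joining libraries of the same replicate number and crossbars for the mean ± SD of 5 libraries beside the points. In each panel the intramuscular library of all 5 pairs lies above the subcutaneous one, and the depots overlap for ITGA1 alone among the 6.

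The remaining beta chains did not pass the test. ITGB5, a further partner of ITGAV, measured 243, 300.3, 278, 253 and 222 CPM in intramuscular replicates 1 to 5, against 308, 303, 263, 261 and 257 CPM in subcutaneous replicates 1 to 5, with a log2 fold change of -0.10 (95% interval -0.42 to 0.21). ITGB4, which pairs with ITGA6 in hemidesmosomes, averaged 138 ± 37.3 against 124 ± 61.4 CPM. ITGB2, the beta chain of leukocyte integrins, averaged 41.7 ± 25.3 against 53.1 ± 56.7 CPM, and 28.4 CPM in subcutaneous fat without replicate 5, which stood at 152 CPM. ITGB7, a lymphocyte chain, averaged 7.07 ± 2.58 against 8.18 ± 3.93 CPM. Per kilobase, ITGB1 held 63.8 ± 3.10% of the listed beta chains in intramuscular and 51.8 ± 7.97% in subcutaneous fat, and ITGB5 22.9 ± 2.27% and 32.7 ± 2.76%.

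Among the collagen-binding alpha chains ITGA1 rose. ITGA1 (ENSBTAG00000016525, chromosome 20, 26108411 to 26283573), which binds collagen IV of basement membranes, measured 17.04, 20.04, 26.8, 24.1 and 21.1 CPM in intramuscular replicates 1 to 5, against 11.6, 17.9, 8.88, 15.9 and 8.57 CPM in subcutaneous replicates 1 to 5. It was higher in all 5 pairs, although intramuscular replicate 1 lay below subcutaneous replicate 2. The log2 fold change was 0.79 ± 0.24 (± SE, edgeR adjusted p = 0.0493). The call was lost with the replicate number as a block (adjusted p = 0.0501) and in 8 of the 10 fits that left out a library, those without any intramuscular library or without subcutaneous replicate 1, 3 or 5, at 0.0553 to 0.124. ITGA11, a receptor for fibrillar collagen on fibroblasts, was the most abundant of the group per kilobase. It measured 38.3, 36.3, 31.4, 23.2 and 24.3 CPM in intramuscular replicates 1 to 5, against 122, 24.6, 14.2, 31.7 and 18.2 CPM in subcutaneous replicates 1 to 5. Subcutaneous replicate 1 stood alone, and without it the log2 fold change was 0.47 in place of -0.46 (adjusted p = 0.225 and 0.561). ITGA10 averaged 18.1 ± 7.22 against 11.3 ± 3.78 CPM and ITGA2, the platelet and epithelial collagen receptor chain, 1.36 ± 0.511 against 1.01 ± 0.619 CPM, and neither passed the test.

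Of the laminin-binding alpha chains, ITGA6 was the most abundant, at 191, 239, 237, 573 and 377 CPM in intramuscular replicates 1 to 5, against 375, 300.3, 320.2, 689 and 411 CPM in subcutaneous replicates 1 to 5. Replicate 4 was the highest of both depots, and ITGA6 was lower in intramuscular fat in 5 of 5 pairs. The log2 fold change was -0.37 ± 0.32 (± SE), with an edgeR adjusted p of 0.446, or 0.121 with the replicate block. ITGA3 went the other way, at 175, 114, 99.0, 84.9 and 74.5 CPM in intramuscular replicates 1 to 5, against 74.3, 92.0, 45.2, 44.6 and 27.2 CPM in subcutaneous replicates 1 to 5. ITGA3 was higher in 5 of 5 pairs with overlap between depots, and its log2 fold change was 0.95 ± 0.32 (± SE). The edgeR adjusted p of ITGA3 was 0.0660 in the unpaired fit, 0.00857 with the replicate block, where 8.09% of all genes tested were called higher, and 0.0341 without subcutaneous replicate 2. Per kilobase ITGA3 made up 29.2 ± 14.3% of these 2 chains in intramuscular fat, with 49.7% in replicate 1, and 13.8 ± 7.75% in subcutaneous fat.

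Leukocyte alpha chains showed no call. ITGAE, which binds E-cadherin, measured 14.5, 10.7, 11.7, 22.7 and 12.6 CPM in intramuscular replicates 1 to 5, against 21.5, 9.97, 16.3, 14.04 and 18.0 CPM in subcutaneous replicates 1 to 5. ITGAL and ITGAM, partners of ITGB2 on lymphocytes and on myeloid cells, averaged 10.2 ± 2.05 against 9.82 ± 5.08 CPM and 7.63 ± 3.77 against 6.61 ± 4.07 CPM. ITGA9, a chain also found on muscle and lymphatic cells, averaged 18.1 ± 3.18 against 11.8 ± 4.28 CPM (edgeR adjusted p = 0.157). Beside them, macrophage markers (12 of 13 genes listed) summed to 199 to 420.4 CPM in intramuscular and 207 to 1053 CPM in subcutaneous fat. Lymphocyte markers (7 of 10 genes listed) summed to 28.9 to 43.4 against 25.9 to 43.3 CPM. Of the 12 macrophage markers 4 were lower and 0 higher in intramuscular fat, where 5.49% of all genes tested were lower. No lymphocyte marker was called.

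The 4 genes that share only the name also had no call. ITGB1BP2 encodes melusin, a striated muscle protein that binds the beta-1 tail, and measured 22.5, 4.48, 7.75, 3.80 and 5.20 CPM in intramuscular replicates 1 to 5, against 0.323, 0.440, 3.60, 3.41 and 3.20 CPM in subcutaneous replicates 1 to 5. The depots did not overlap, and intramuscular replicate 1, highest in the striated muscle sum, stood apart. Its log2 fold change was 1.98 ± 0.69 (± SE, edgeR adjusted p = 0.0773), and its intramuscular mean was 5.31 CPM without replicate 1 and 8.74 CPM with it. ITGB1BP1, a regulator of beta-1 activation, averaged 38.7 ± 6.77 against 52.5 ± 8.67 CPM (edgeR adjusted p = 0.102), ITGB3BP, a centromere protein, 5.23 ± 1.25 against 6.76 ± 0.972 CPM, and ITGBL1 20.9 ± 6.58 against 29.2 ± 20.7 CPM.

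**Figure D4:**
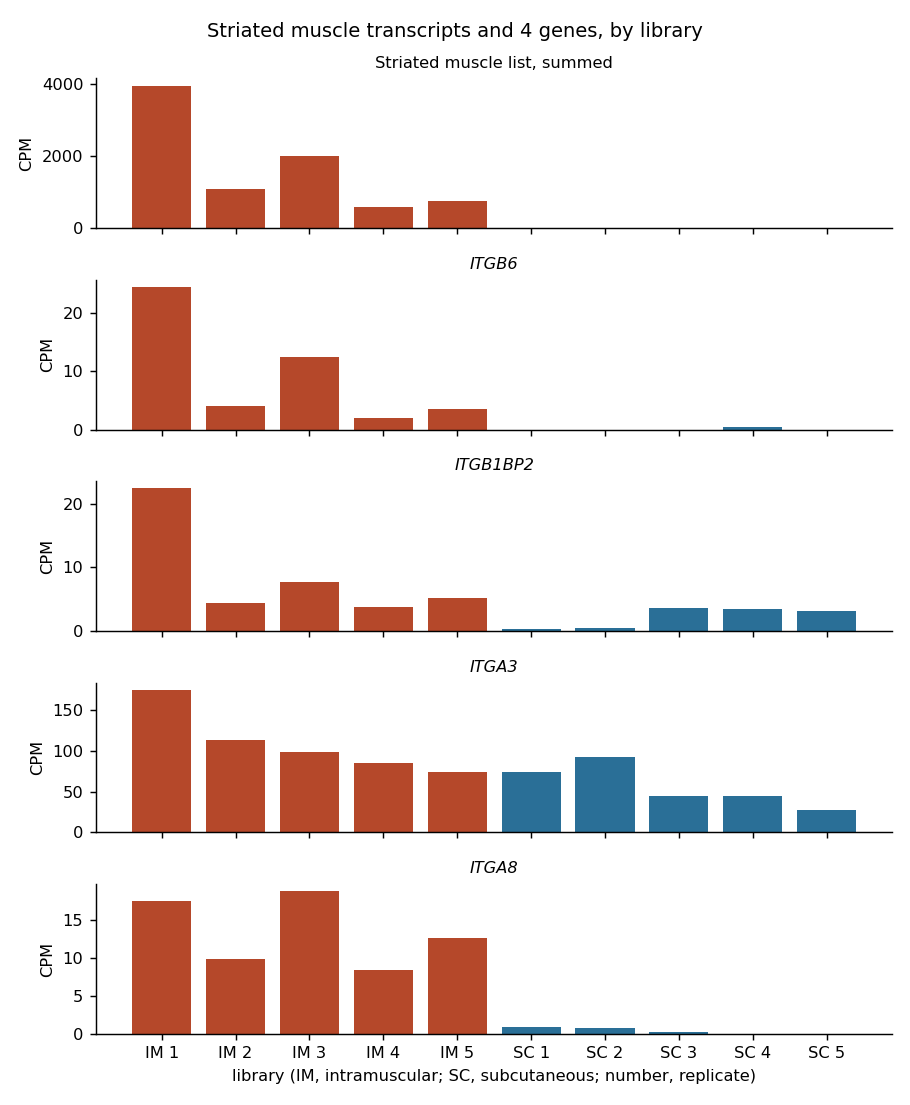
Summed CPM of the 13 striated muscle genes with values (top) and CPM of ITGB6, ITGB1BP2, ITGA3 and ITGA8 in each library, intramuscular (IM) left of subcutaneous (SC), as bars from 0. Intramuscular replicate 1 holds the highest bar in the top 4 panels, and intramuscular replicate 3 is the highest for ITGA8.

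Ratios between chains that can stand in for each other were compared within each library, so that gene length and library scaling cancel between depots. Of 8 ratios, 6 had values for both chains. The log2 ratio of ITGB5 to ITGB1 was -1.65, -1.38, -1.71, -1.72 and -1.90 in intramuscular replicates 1 to 5, against -1.001, -1.17, -0.90, -0.85 and -0.30 in subcutaneous replicates 1 to 5. Every intramuscular library lay below every subcutaneous one. The difference was -0.83, or 0.564-fold (exact permutation p = 0.00794, two-sided, which 10 libraries cannot go below, and 0.0476 after adjustment over the 6 ratios). Most of it lies in ITGB1, whose log2 fold change was 0.67 with a marginal call, while that of ITGB5 was -0.10. The adjustment was planned over 8 ratios, and the ITGB5 to ITGB1 call rests on making it over the 6 with values. Sign flips of the 5 pairs gave an exact permutation p of 0.0625, which again is the lowest possible, and 0.375 after adjustment. Without intramuscular replicates 1 and 3 the difference was -0.82 (adjusted exact permutation p = 0.0536). The depots still did not overlap there, and the p before adjustment was the lowest that the fewer libraries allow.

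The other 5 ratios did not differ past the threshold. The log2 ratio of ITGA5 to ITGAV averaged 6.24 ± 0.42 in intramuscular and 5.68 ± 0.31 in subcutaneous fat (adjusted exact permutation p = 0.167). For LAMB1 to LAMB2 it was -2.40 ± 0.42 against -2.68 ± 0.15 (adjusted exact permutation p = 0.413), with intramuscular replicate 1 the lowest of all libraries at -3.14. Without that library the difference was 0.46 in place of 0.28, with an adjusted exact permutation p of 0.0238. The ratios of LAMA5 to LAMA4, NID2 to NID1 and AGRN to HSPG2 differed by 0.25, 0.17 and 0.16 on the log2 scale, each with an adjusted exact permutation p of 0.460. Without intramuscular replicate 1 these 3 differences were 0.039, 0.060 and -0.00010.

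**Figure D5:**
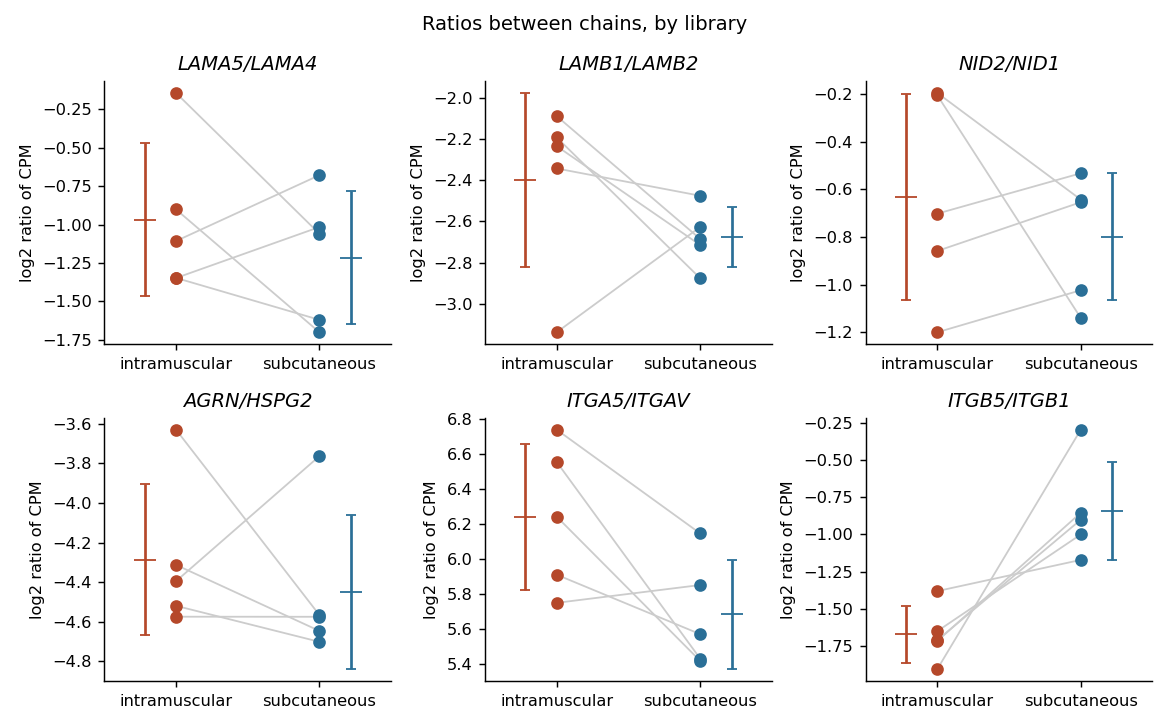
Log2 ratio of the CPM of paired chains in each library, with grey lines joining libraries of the same replicate number and crossbars for the mean ± SD of 5 libraries. The depots separate for ITGB5 to ITGB1, with intramuscular values of -1.90 to -1.38 below subcutaneous values of -1.17 to -0.30, and overlap for the other 5 ratios.

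In other basement membrane genes, 21 of 26 listed had values and 20 were tested. Of the 20, 4 were higher and 1 lower in intramuscular fat, where the shares of all genes tested were 6.75% and 5.49%. The median log2 fold change was -0.06, against -0.04 for all genes tested. The 4 higher ones were PAPLN, COL4A5, COL4A6 and NTN4. Papilin (PAPLN), a proteoglycan-like basement membrane protein, measured 68.7, 49.8, 58.7, 33.4 and 29.5 CPM in intramuscular replicates 1 to 5, against 5.74, 5.57, 3.72, 3.05 and 3.74 CPM in subcutaneous replicates 1 to 5 (log2 fold change 3.46, edgeR adjusted p = 3.28e-05). COL4A5 and COL4A6 lie next to each other on chromosome X and encode minor collagen IV chains. COL4A5 averaged 51.8 ± 23.8 against 9.48 ± 5.73 CPM and COL4A6 61.9 ± 23.7 against 7.76 ± 5.88 CPM, without overlap, and both kept an adjusted p under the threshold without intramuscular replicates 1 and 3 (0.0372 and 0.0203). PAPLN, COL4A5 and COL4A6 were each highest in intramuscular replicate 1, the library with the highest striated muscle sum, and replicate 3 came next. The part of muscle transcripts in the differences of these genes was not tested. COL4A1 and COL4A2, the main collagen IV chains, averaged 4619.9 ± 1262 against 6756 ± 1456 CPM and 3055 ± 787 against 5282 ± 1277 CPM, and edgeR adjusted p were 0.156 and 0.0546 (0.0468 for COL4A2 by limma voom and 0.00688 by DESeq2).

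SMOC1, a calcium-binding basement membrane protein, fell by 0.77 on the log2 scale (419 ± 91.1 against 713 ± 123 CPM, edgeR adjusted p = 0.0261). The SMOC1 call was lost without intramuscular replicate 1 or 3 or subcutaneous replicate 2 or 3, at adjusted p of 0.0524 to 0.0728. NTN4, a netrin that binds laminin gamma chains, averaged 33.4 ± 8.67 against 14.3 ± 6.96 CPM (edgeR adjusted p = 0.0278), and its call was lost without intramuscular replicate 1, 2 or 3 or subcutaneous replicate 3, at 0.0532 to 0.0646.

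The dystroglycan complex is the other main laminin receptor, best known from muscle fibres. Of 15 genes listed 9 had values and were tested, and 3 were higher and 0 lower in intramuscular fat (median log2 fold change 0.59). Among all genes tested, 6.75% were higher and 5.49% lower. SGCA, a sarcoglycan of striated muscle, measured 189, 55.7, 66.4, 24.9 and 27.6 CPM in intramuscular replicates 1 to 5, against 9.87, 8.06, 10.5, 4.17 and 9.53 CPM in subcutaneous replicates 1 to 5. It was highest in intramuscular replicate 1, as the striated muscle sum was, and its log2 fold change was 3.11 (edgeR adjusted p = 0.00282), but 2.38 without that library and 2.10 without replicates 1 and 3. The syntrophin SNTB1 averaged 71.8 ± 55.3 against 11.8 ± 6.27 CPM (log2 fold change 2.60, or 1.92 without intramuscular replicates 1 and 3). The part of muscle transcripts in the SGCA and SNTB1 differences was not tested. Sarcospan (SSPN) averaged 63.6 ± 22.6 against 32.2 ± 8.14 CPM (edgeR adjusted p = 0.0272), and its call was lost without intramuscular replicate 1 or 3 or subcutaneous replicate 2, at 0.0507 to 0.0787. SGCE had an edgeR adjusted p of 0.0976, but 0.0365 with the replicate block and 0.0405 without subcutaneous replicate 1. Dystroglycan itself (DAG1) averaged 268 ± 21.3 against 243 ± 141 CPM.

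Of 24 proteins that tie integrin tails to actin or signal from them, 23 had values and were tested. Of the 23, 3 were higher and 0 lower (median log2 fold change 0.27), beside 6.75% and 5.49% of all genes tested. Vinculin (VCL) averaged 732 ± 112 against 351 ± 73.6 CPM, zyxin (ZYX) 694 ± 109 against 330.2 ± 80.2 CPM, and LIMS2, an adaptor that binds integrin-linked kinase, 283 ± 52.0 against 150.2 ± 22.1 CPM, each without overlap. VCL differed by 1.06 ± 0.20, ZYX by 1.07 ± 0.20 and LIMS2 by 0.91 ± 0.17 on the log2 scale (± SE), and the edgeR adjusted p were 0.00510, 0.00584 and 0.00545. VCL, ZYX and LIMS2 were each highest in intramuscular replicate 1, at 876, 825 and 371 CPM. That library had the highest striated muscle sum, and the part of muscle transcripts in these differences was not tested. KRIT1, which binds ITGB1BP1, averaged 31.8 ± 4.63 against 22.2 ± 4.94 CPM without overlap (edgeR adjusted p = 0.0933). The talin gene TLN1, kinase gene ILK and kinase gene PTK2 had log2 fold changes of 0.01, 0.07 and -0.06 and did not pass the test.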

How the data were processed

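Per the labels, RNA of adipose tissue was copied with random hexamers and given a dUTP-marked second strand. The submitters' processing notes name Trimmomatic 0.39, featureCounts 2.0.2, STAR 2.7.11a and DESeq2 1.42.0. Coordinates are those of the deposited table, whose genome build, like the strand setting, is not given in the sources used here. The authors deposited raw counts per gene, the gene length, their mean count per depot, a mean signal over all libraries after scaling, a log2 fold change, a Wald score and a p-value with its adjusted value.

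Counts were tested with edgeR 4.0.16 (quasi-likelihood, TMM, filterByExpr on depot, no block, two-sided) in R 4.3.3, which kept 12521 of 12674 genes. The fit was tested on simulated counts. CPM used edgeR's scaled library sizes, and log2 CPM a prior count of 2. Ratios were compared by exact permutation over libraries. DESeq2 1.42.0, limma 3.58.1 (voom), RLE scaling, no filter, a replicate block and left-out libraries were alternatives. The floor of 3 counts covers counting error alone.

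Libraries of 1 number were treated as a pair only in the replicate block, the sign flips and the counts of pairs. The series' text gives both depots from the same 5 heifers. The main edgeR fit and the permutation over libraries did not use the pairing. Same-numbered libraries' deviations from their depot means correlated across tested genes at 0.102 to 0.237, and each of the 10 libraries had its best match in its own number. No label says more of how libraries were replicated.

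The genes and lists were chosen with earlier results of these data known. By rule, genes past the threshold and the most abundant gene of each class are given library by library, and each further list names at most 4 genes, those with the lowest p. LAMC3, ITGA3, ITGB5, ITGB1BP2, NTN4, COL4A1, COL4A2, DAG1, TLN1, ILK and PTK2 were chosen after their values were seen. Schwann cell and nerve markers (14 of 19 genes with values) summed to 611 to 1004 CPM in intramuscular and 731 to 1572 CPM in subcutaneous fat, and stromal progenitor markers (11 genes) to 2129 to 3346 against 2616 to 5371 CPM. In intramuscular fat 8 Schwann and nerve markers were higher and 1 lower, which was S100B, the largest part of that sum. Of the stromal progenitor markers 4 were lower and 0 higher. All genes tested were 6.75% higher and 5.49% lower. Of the 38 genes, 1 is counted with its class but not reported here by itself.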

Additional observations from a re-analysis of the deposited data

Results flagged for a closer look

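Over 86 groups of 5 libraries, 12 held a library far from the other 4 relative to the group's range. Chance alone gives about 1 in 20 for independent groups of normally distributed values, which not all of the 86 are. Intramuscular replicate 1, the library with the highest striated muscle sum, was the one apart in 5 of the 12. It stood at 138 CPM for AGRN (next 94.3), 161 CPM for LAMB1 (next 234), 22.5 CPM for ITGB1BP2 (next 7.75), and at log2 ratios of -3.14 for LAMB1 to LAMB2 (next -2.34) and -3.63 for AGRN to HSPG2 (next -4.31). LAMB1 and AGRN each enter here by level and again by ratio, so these groups are not independent.

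Subcutaneous replicate 4 stood apart at 0.352 CPM for ITGB6 (next 0), 689 CPM for ITGA6 (next 411) and 8.46 CPM for ITGB3BP (next 6.67). Subcutaneous replicate 5 stood at 152 CPM for ITGB2 (next 44.0). The others were subcutaneous replicate 1 for ITGA11 at 122 CPM (next 31.7), intramuscular replicate 2 for ITGA2B at 22.3 CPM (next 14.4), and subcutaneous replicate 3 for the AGRN to HSPG2 log2 ratio at -3.76 (next -4.57).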

How the results depend on the processing

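The count of higher genes among the 38 was 6 with RLE scaling, limma voom, no filter or the replicate block, and 8 by DESeq2. It was 4 to 7 with a library left out, and 3 without intramuscular replicates 1 and 3. Over all genes the higher count moved as well, from 845 in the main fit to 1369 by DESeq2. It was 494 to 1008 with a library left out and 306 without intramuscular replicates 1 and 3. The count of lower genes was 1 by DESeq2 (LAMC3) and 0 to 1 with a library left out. The replicate block exchanged ITGA1 for ITGA3 and changed no other call among the 38. ITGA5, ITGA8 and ITGB6 kept their call in all 16 alternatives run, and ITGB3 in all but the fit without intramuscular replicates 1 and 3.

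For other basement membrane genes the lower count was 5 by DESeq2, 2 by limma voom, 0 to 1 with a library left out and 0 without intramuscular replicates 1 and 3. The lower count over all genes was 688 in the main fit, 1171 by DESeq2 and 594 by limma voom. It was 263 to 887 with a library left out and 67 without intramuscular replicates 1 and 3. The ITGB5 to ITGB1 difference was -0.83 with the replicate block (adjusted exact permutation p = 0.375, a test of 5 pairs that cannot pass the threshold) and -0.82 without intramuscular replicates 1 and 3. LAMA5 to LAMA4 and AGRN to HSPG2 changed sign without those 2 libraries, to -0.052 and -0.019. With a library left out, AGRN to HSPG2 ran from -0.00010 to 0.34 and LAMB1 to LAMB2 from 0.20 to 0.46.

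Sign changes among genes that were not called in either fit were 22 in number. Without subcutaneous replicate 1 the log2 fold changes became 0.0056 for AGRN, 0.018 for LAMA3, 0.018 for LAMB2 and 0.47 for ITGA11, which was 0.013 with the replicate block. LAMA4 gave 0.0061 with RLE scaling, 0.0065 by DESeq2, up to 0.053 without intramuscular replicate 1 or subcutaneous replicate 1 or 3, and 0.070 without intramuscular replicates 1 and 3. ITGAL gave -0.08, -0.13 and -0.05 without intramuscular replicate 2, subcutaneous replicate 1 and subcutaneous replicate 3, and ITGAM -0.067 and -0.01 without the first and the last of these. ITGB2 gave 0.56 and ITGB7 0.072 without subcutaneous replicate 5, and ITGB4 -0.0030 without intramuscular replicate 5. Without intramuscular replicates 1 and 3, ITGB2, LAMA5 and NID2 gave 0.12, -0.020 and 0.0025. With any library left out, the other ends of the ranges were -0.30 for AGRN, -0.68 for ITGA11, 0.38 for ITGAL, 0.50 for ITGAM, -0.70 for ITGB2, 0.48 for ITGB4, -0.43 for ITGB7, -0.54 for LAMA3, -0.057 for LAMA4 and -0.19 for LAMB2. The cause of these changes was not tested. The ratios LAMA2 to LAMA4 and ITGA7 to ITGA6 were not run. Depth limits ITGB6, ITGA8 and LAMC3 most, since each had 1 or more libraries with no count.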

Other observations

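ITGAV, the only listed alpha partner of ITGB3, ITGB5 and ITGB6 apart from ITGA2B, had one of the lower levels per kilobase, at 2.00 ± 0.528 CPM per kilobase in intramuscular and 1.24 ± 0.485 in subcutaneous fat (SD, n = 5 each). The summed level of ITGB3, ITGB5 and ITGB6 was 44.2 ± 9.66 times that of ITGAV in intramuscular and 76.6 ± 28.5 times in subcutaneous fat, and between 33.6 and 116 times in single libraries. These values use the gene lengths of the deposited table.

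FREM1, a protein of epithelial basement membranes, did not pass the filter on low counts used for the edgeR fit. It had an intramuscular mean of 1.80 ± 2.17 CPM and no count in any subcutaneous library. Without the filter it was called higher in intramuscular fat (edgeR adjusted p = 0.0170), which brings the higher genes among the other basement membrane genes to 5 in place of 4, and the authors' deposited table gives an adjusted p of 9.46e-06. ITGA6 was highest in replicate 4 of both depots, at 573 CPM in intramuscular and 689 CPM in subcutaneous fat.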
